A study of Mus musculus with 12 samples.

Results

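Pre-mRNA splicing is carried out by the spliceosome, an assembly of small nuclear ribonucleoproteins (snRNPs) that recognise splice sites, and is steered by RNA-binding proteins that favour or block each site. The genes described here encode components of both kinds. They comprised 98 genes whose symbols belong to the Srsf, Hnrnp, Rbm, Luc7l, Sf3a and Sf3b, or Snrp and Snrnp families and whose mean raw count was 10 or more over all mice, out of 24985 genes in the count table. Of the 98, 11 were Srsf genes, 21 Hnrnp, 35 Rbm, 3 Luc7l, 9 Sf3a or Sf3b and 19 Snrp or Snrnp. The rule used symbols and this count limit alone, and all 98 also passed the filter on low counts that left 14742 genes for testing. A further 5 genes matched by symbol but fell below the count limit (Rbm3os, Rbm4, Rbm44, Rbm31y and Rbm46os).

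Dorsal hippocampus was profiled by bulk polyA RNA-seq in 12 C57Bl6/J mice, 3 in each of 4 groups, and each mouse gave 1 library. PBS-control mice received a unilateral PBS injection and standard chow, PBS-acetate mice PBS and chow with 5% sodium acetate, Tau-control mice 1 µg of AD tau and standard chow, and Tau-acetate mice AD tau and the acetate chow. AD tau is sarkosyl-insoluble tau purified from the frontal cortex of patients with Alzheimer's disease, which was injected at 6 months of age to seed tau pathology in mice that carry no tau transgene. All mice were harvested 6 months after injection, a day after a test of remote memory, and the tissue came from the injected side. The control and acetate chows had different base diets, so diet here means the whole chow. The paper describes the control chow as calorically equivalent.

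Library totals ran from 12983233 to 20218340 counts on genes, and the 98 genes together took 8106 to 8875 CPM (counts scaled to library size, so that each library has the same total) in each mouse. The labels give the mice as male, whereas Xist lay between 920 and 1340 CPM in the 12 libraries and 4 Y-linked genes summed to 0 counts. Bulk RNA cannot separate fewer cells of a type from less RNA per cell. Marker lists for several cell types differed between groups, and their values stand beside the comparisons.

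SR proteins (the Srsf genes) bind exonic enhancers through RNA recognition motifs and recruit snRNPs through a tail rich in arginine-serine pairs, which is phosphorylated by SRPK and CLK kinases. Proteins of the hnRNP class coat nascent transcripts and often act as silencers of nearby splice sites. Luc7l proteins associate with the U1 snRNP and influence the choice of 5′ splice site, and Sf3a and Sf3b subunits anchor the U2 snRNP at the branch point. Snrp and Snrnp genes encode Sm core proteins and proteins particular to each snRNP, whereas the Rbm symbol is shared by diverse proteins with an RNA recognition motif. Many SR and hnRNP genes hold a poison exon, whose inclusion sends their own transcript to nonsense-mediated decay.

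Many of these proteins carry arginine-rich stretches, and the run of 30 codons with the most arginine codons is printed for 5 members named in the results. Of the members called by edgeR, Rbm33, Rbm3, Rbm22 and Hnrnpdl are not printed. Sequences are from the principal GENCODE M21 transcripts, 5′ to 3′ on the sense strand, with arginine codons in capitals.
Rbm25: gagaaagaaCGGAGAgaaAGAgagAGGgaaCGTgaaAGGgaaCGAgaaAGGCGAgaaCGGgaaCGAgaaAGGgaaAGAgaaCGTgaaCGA
Luc7l2: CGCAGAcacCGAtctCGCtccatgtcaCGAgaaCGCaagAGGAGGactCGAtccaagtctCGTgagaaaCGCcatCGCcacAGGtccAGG
Luc7l3: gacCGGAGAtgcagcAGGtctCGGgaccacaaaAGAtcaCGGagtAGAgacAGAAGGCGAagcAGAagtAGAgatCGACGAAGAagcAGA
Srsf5: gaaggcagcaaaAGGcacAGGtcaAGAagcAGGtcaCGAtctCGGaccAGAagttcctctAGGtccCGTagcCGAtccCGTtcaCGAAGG
Hnrnpc: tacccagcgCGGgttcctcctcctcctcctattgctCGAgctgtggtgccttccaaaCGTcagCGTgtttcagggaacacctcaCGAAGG

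The Rbm25 stretch (chr12:83664027-83664116, GRCm38, plus strand, codons 305 to 334, within 1 coding exon) alternated arginine with glutamate codons, and 15 of its 30 codons were arginine. The Luc7l2 stretch (chr6:38603296-38603385, plus strand, within 1 coding exon) held 14 arginine codons. The Luc7l3 stretch spanned 2 coding exons (chr11:94296056-94296948, minus strand) and held 16 arginine codons, many beside serine codons. The Srsf5 stretch (chr12:80949585-80949789, plus strand, 2 coding exons) came from its arginine-serine tail, with 13 arginine codons. The Hnrnpc stretch (chr14:52077464-52077553, minus strand, 1 coding exon) is shown for contrast, because the densest window of this gene had only 6.

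Over whole coding sequences, arginine made up a median of 7.32% of codons in the 97 protein-coding members and 5.62% in the 13927 tested genes with a coding sequence. The share was 19.7% in the Srsf family and 17.8% in the Luc7l family. Neighbouring arginine-serine or arginine-acid codon pairs reached 5% of all codon pairs in 27 of the 97 members (27.8%) and in 2.58% of all tested genes. These 27 took in all 11 Srsf and all 3 Luc7l genes, 8 Rbm genes, 4 Snrp or Snrnp genes and 1 Hnrnp gene. The annotation also lists a transcript subject to nonsense-mediated decay for 41.2% of the 97 members and 27.7% of tested protein-coding genes. Such transcripts were annotated for 9 of 11 Srsf genes and 3 of 3 Luc7l genes but 1 of 9 Sf3a and Sf3b genes. A retained-intron transcript was annotated for 69.1% of members and 57.2% of tested genes. Gene-level counts do not tell these isoforms apart.

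Levels per length are on the scale of CPM per kilobase of exon, averaged over the 12 mice. Exon length was the union over all annotated transcripts of a gene, such as 17.4 kb for Rbm25. The ranking therefore depends in part on the annotation. The Hnrnp family had the highest median level, 29.7, followed by Srsf at 24.4, Luc7l at 17.1, Sf3a and Sf3b at 11.7, Snrp and Snrnp at 9.76 and Rbm at 5.96. Hnrnpa2b1, a splicing and mRNA transport protein, ranked first among the members, with group means of 63.8 in PBS-control, 66.1 in PBS-acetate, 63.7 in Tau-control and 61.4 in Tau-acetate and an SD of 2.22 over the 12 mice. Hnrnpab, a binder of single-stranded RNA, had group means of 57.9 to 61.0 and an SD of 3.09, and Hnrnpa0, a binder of AU-rich elements, 55.2 to 59.8 with an SD of 3.76. Over all 12 mice these 3 averaged 63.7, 59.2 and 57.6, so that Hnrnpab and Hnrnpa0 did not differ beyond their spread. At the low end were Rbm47, Rbm20 and Rbm46, known respectively from epithelia, striated muscle and germ cells. The members nearest the count limit from within were the processed pseudogene Hnrnpa1l2-ps2, whose mean raw count was 10.0 and whose reads cannot be separated with certainty from those of its parent gene, Rbm47 at 12.0 and Rbm46 at 16.8. Just outside it were Rbm3os at 4.83, Rbm4 at 1.67 and Rbm44 at 0.333. Annotated exons of Rbm4 overlap the gene model Gm21992 on the same strand over 60.5% of their length. Such overlap covered 75.4% of the exons of Rbm42 (with Gm21982), 33.1% of those of Rbm12 (with Cpne1) and 27.3% of those of Snrpn, an imprinted Sm protein gene (with Snurf), and the counts of these genes are uncertain to that extent.

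Most members varied little among mice. The highest mouse exceeded the lowest by a median factor of 1.25 per gene, and 86 of the 98 stayed below a factor of 1.5. The most even was Hnrnpul2, a relative of the scaffold protein Hnrnpu, whose factor was 1.05. A factor above 2 occurred in 6 members, among them Rbm47, Rbm46 and Rbm20. The median coefficient of variation within groups was 6.27% for members, against 8.54% for all tested genes and 6.24% for the 6078 tested genes in the central range of the members' levels.

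**Figure D1:**
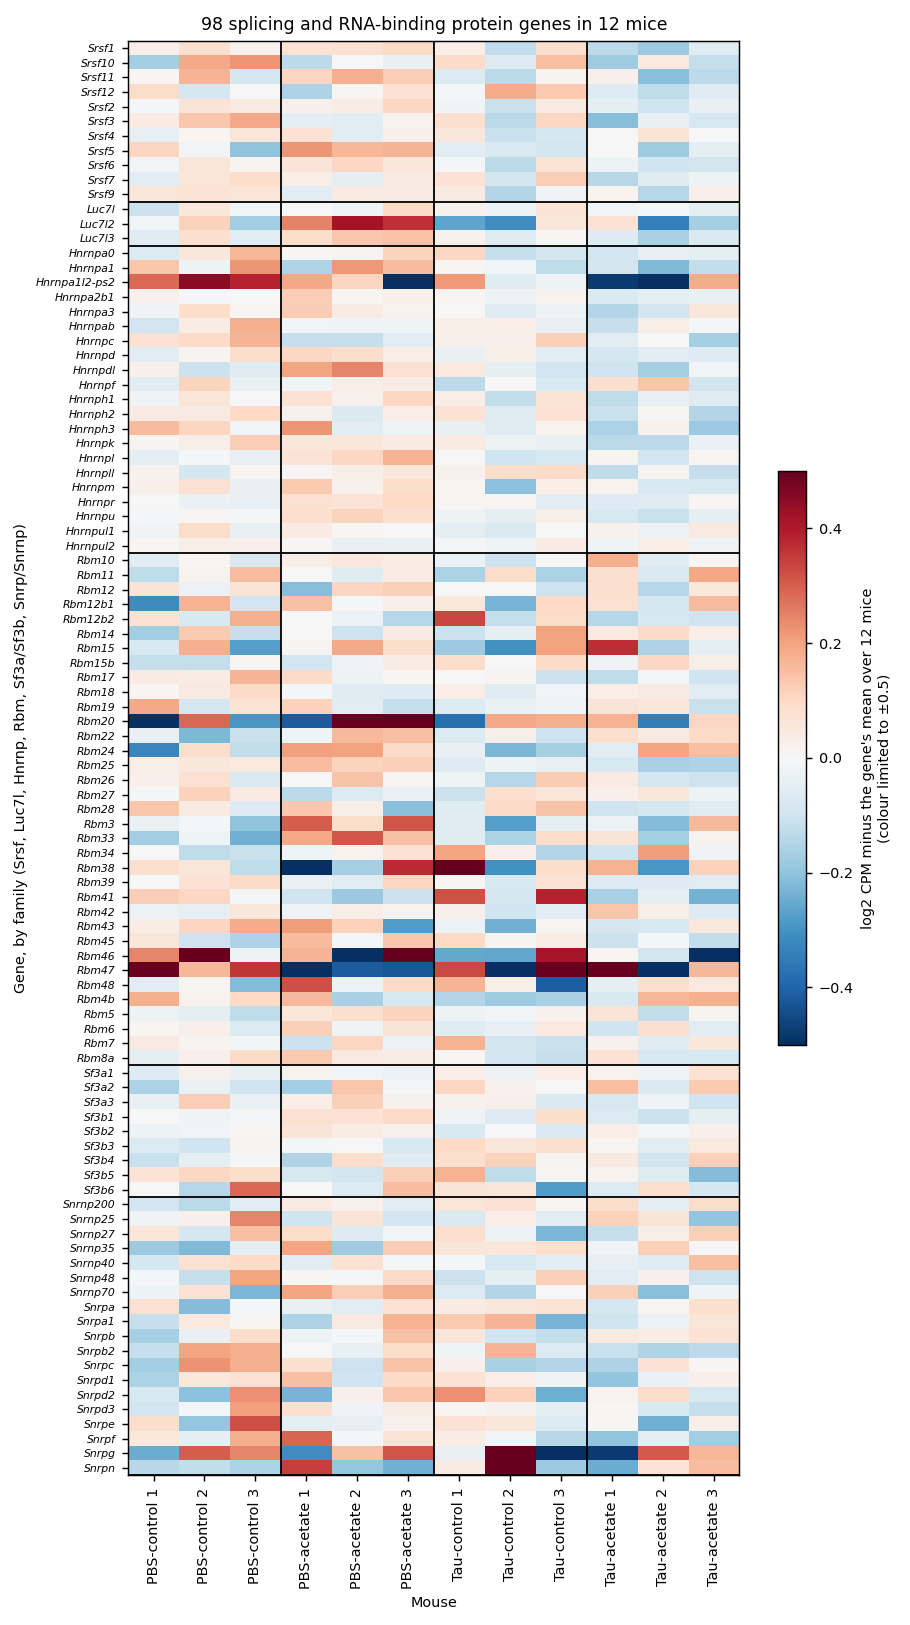
Level of each of the 98 genes (rows, by family) in each of 12 mice (columns, 3 per group) as log2 CPM minus the mean of that gene over the mice. The PBS-acetate columns hold most of the strong red cells of Luc7l2, Rbm33 and Hnrnpdl, and the most variable rows (Hnrnpa1l2-ps2, Rbm20, Rbm38, Rbm46, Rbm47 and Snrpg) are genes with few counts.

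Summed over the 98 genes, the level was highest in PBS-acetate mice, in which it was 8872, 8790.0 and 8875 CPM. It was 8414, 8630.2 and 8547 CPM in PBS-control, 8522, 8201 and 8556 CPM in Tau-control and 8274, 8106 and 8297 CPM in Tau-acetate mice. All 3 PBS-acetate mice therefore lay above the other 9, and the Tau-acetate mice overlapped the Tau-control mice but not the PBS-control mice. The same order of the PBS groups was seen in the sum over the 19 Snrp and Snrnp genes, at 853 to 879.95 CPM in PBS-control and 915 to 947 CPM in PBS-acetate, and over the 9 Sf3a and Sf3b genes, at 902 to 925 and 943 to 948 CPM. Much of the Snrp and Snrnp difference was that of Snrnp70, whose means were 318 and 372 CPM, while 10 of the 19 genes had a log2 fold change below 0. The PBS groups overlapped in the sums of the Srsf genes, at 1166 to 1220 and 1208 to 1225 CPM, and of the Luc7l genes, at 354.7 to 392.8 and 392.6 to 414.6 CPM. The shift was small, with means of 8530.3 ± 109 CPM (SD, n = 3) in PBS-control and 8846 ± 48.4 CPM in PBS-acetate.

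In 10 of the 98 members (10.2%) all 3 PBS-acetate mice lay above the 9 other mice, against 1.97% of all tested genes. They were Hnrnpdl, Hnrnpl, Hnrnpr, Hnrnpu, Luc7l2, Luc7l3, Rbm25, Rbm33, Snrnp70 and Srsf5. In 0 members did all PBS-acetate mice lie below the others (1.24% of tested genes). The Tau-acetate mice lay below the 9 others in 4 members, Hnrnpa2b1, Hnrnpu, Luc7l3 and Rbm25 (0.95% of tested genes), and above them in 0 (0.739%). PBS-control mice were above the rest in 2 members (1.58%) and below in 1 (1.65%). Tau-control mice were above in 1 (0.38%) and below in 0 (0.556%). Hnrnpl, Hnrnpr, Hnrnpu and Hnrnpa2b1 are named here for this position, which was looked up after their values were known.

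**Figure D2:**
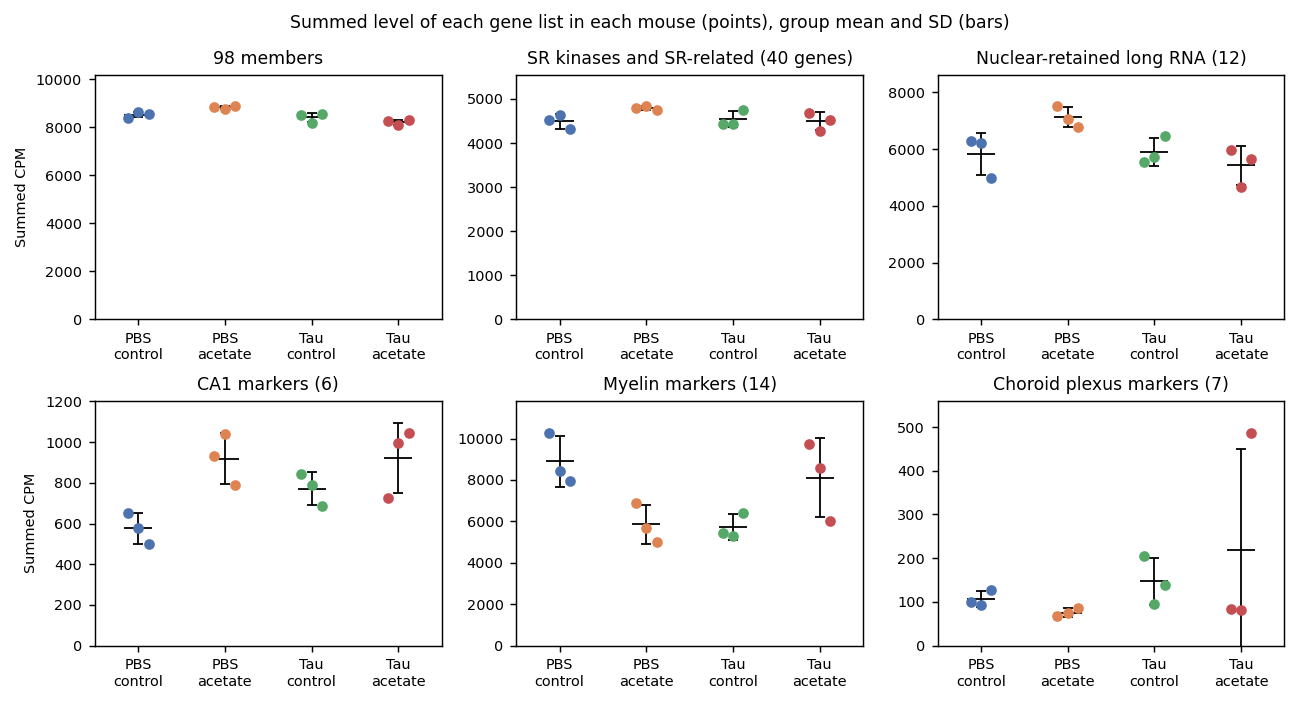
Summed CPM of the 98 genes, of 40 SR kinase and SR-related genes, of 12 nuclear-retained long RNAs and of the CA1, myelin and choroid plexus marker lists in each mouse (points), with the mean and SD of each group of 3 (bars) on axes that start at 0. The PBS-acetate points are highest for the 98 genes, the SR-related genes and the nuclear-retained RNAs, and 1 Tau-acetate mouse stands apart at 487 CPM of choroid plexus markers.

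Other lists also differed between the PBS groups, some of them opposite to this sum. The 12 long RNAs that stay largely in the nucleus (Malat1, Meg3, Miat, Ftx and others) summed to 6793 to 7500.1 CPM in PBS-acetate mice and to 4660 to 6466 CPM in the 9 others, so that they too were highest in PBS-acetate. Between PBS-acetate and PBS-control mice, 10 of these 12 RNAs had a log2 fold change above 0. The 6 markers of CA1 pyramidal neurons, all 6 above 0, summed to 788 to 1039 CPM in PBS-acetate and 499 to 652 CPM in PBS-control mice. The 8 CA3 markers, all 8 below 0, summed to 242 to 399 against 457 to 551 CPM, and the 14 myelin markers, all 14 below 0, to 5004 to 6886 against 7945 to 10280 CPM. Inhibitory neuron markers, 7 of 10 above 0, summed to 815 to 897 against 736 to 792 CPM, and choroid plexus markers, 6 of 7 below 0, to 67.4 to 86.2 against 93.3 to 127 CPM. No gene of these 6 lists was at 0 in all mice, and their part in the levels of the splicing genes was not tested.

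The first comparison asked what the acetate diet did in mice without injected tau. Of the 98 genes, 6 rose and 1 fell on the acetate diet after PBS injection (adjusted p below 0.1, quasi-likelihood test of edgeR). These shares, 6.12% and 1.02%, stand against 3.99% and 4.85% of all genes tested, so the members were called about as often as other genes and 6 of their 7 calls were upward. The genes that rose were Rbm33, Hnrnpdl, Srsf5, Luc7l2, Rbm3 and Rbm22, and the one that fell was Hnrnpc. They came from 4 of the 6 families. DESeq2 called 7 members higher (3.83% of all genes) and 1 lower (5.35%), among them Hnrnpl and Snrnp70 but not Rbm22.

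Rbm33, an RNA-binding protein encoded on chromosome 5 (chr5:28317121-28419239), had the smallest p of the members. Its level was 96.6, 107 and 92.2 CPM in PBS-control mice and 124, 135 and 120.5 CPM in PBS-acetate mice. Every PBS-acetate mouse was higher than every PBS-control mouse, and the tau-injected groups, at 97.2 to 116 CPM, lay between or within the PBS-control range. The log2 fold change was 0.36 (SE 0.08, adjusted p = 0.0219).

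Luc7l2, a U1-associated splicing factor (chr6:38551334-38609470), showed the largest rise of the called members. It was at 40.8, 44.6 and 36.5 CPM in PBS-control mice and at 48.9, 54.9 and 53.0 CPM in PBS-acetate mice. The groups did not overlap, and the difference was 0.37 on the log2 scale (SE 0.11, adjusted p = 0.0746). Its relative Luc7l3 lay at 194, 214 and 196 CPM in PBS-control and at 215, 223 and 224 CPM in PBS-acetate mice. That difference of 0.13 (SE 0.05) did not pass the threshold (adjusted p = 0.147 by edgeR).

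Hnrnpdl, a paralog of the AU-rich element binder Hnrnpd (chr5:100033577-100039664), was at 217, 197 and 204 CPM in PBS-control mice and at 244, 252 and 224 CPM in PBS-acetate mice. These groups did not overlap (log2 fold change 0.22, SE 0.06, adjusted p = 0.0454). Hnrnpc, which binds uridine tracts and holds back cryptic exons (chr14:52073377-52104028), went the other way. It was at 191, 194 and 204 CPM in PBS-control and at 167, 167 and 175 CPM in PBS-acetate mice, a log2 fold change of -0.21 (SE 0.05, adjusted p = 0.0390). The Tau-acetate mice, at 174, 181 and 162 CPM, overlapped the PBS-acetate mice in this gene.

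Srsf5, an SR protein (chr12:80945504-80950507), was at 182, 167 and 147 CPM in PBS-control mice and at 197, 189 and 189.9 CPM in PBS-acetate mice (log2 fold change 0.22, SE 0.07, adjusted p = 0.0685). Its PBS-control mice were spread widely and PBS-control mouse 3 was lowest, without which the log2 fold change of Srsf5 was 0.14 (adjusted p = 0.278). Rbm3, a cold-inducible RNA-binding protein of the X chromosome (chrX:8138975-8145880), was at 24.7, 25.2 and 22.0 CPM in PBS-control and at 31.3, 26.9 and 31.5 CPM in PBS-acetate mice. The rise of Rbm3 was 0.32 (SE 0.10, adjusted p = 0.0800). Rbm22, which contacts the catalytic RNA core of the spliceosome, was at 38.6, 33.9 and 36.6 and at 39.0, 44.2 and 43.9 CPM in the same groups, so that the lowest PBS-acetate mouse was barely above the highest PBS-control mouse (log2 fold change 0.22, SE 0.07, adjusted p = 0.0898).

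**Figure D3:**
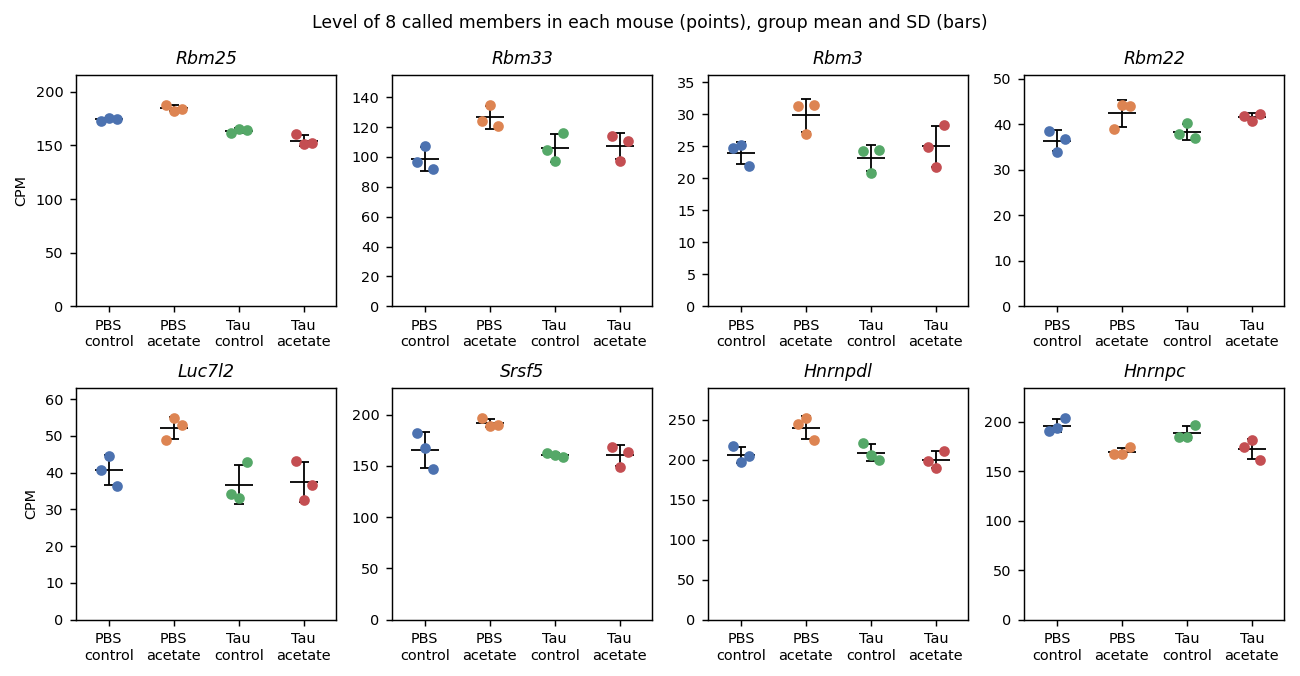
Level in CPM of Rbm25, Rbm33, Rbm3, Rbm22, Luc7l2, Srsf5, Hnrnpdl and Hnrnpc in each mouse (points), with the mean and SD of each group of 3 mice (bars) on axes that start at 0. In all panels but that of Hnrnpc the PBS-acetate mice have the highest mean, and in the Rbm25 panel the 4 groups do not overlap.

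The calls leaned on single mice. Without PBS-acetate mouse 2, 0 members were called, and without PBS-control mouse 3 only Rbm33 was. Without PBS-acetate mouse 1 the calls were Rbm22 and Rbm33, and without PBS-acetate mouse 3 they were 4. Leaving out Tau-acetate mouse 1, which is in neither group compared but shares the fit and the scaling, gave 11 calls. All 7 log2 fold changes kept their sign in each of these fits, and that of Rbm33 lay between 0.31 and 0.42.

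Counted by position, 18 members were higher in all 3 PBS-acetate mice than in all 3 PBS-control mice (13.1% of all genes tested) and 10 were lower in all 3 (13.2%), which is 18.4% and 10.2% of the members. The median log2 fold change of the 98 was 0.02, against 0.00 for all tested genes, and 16 members had an unadjusted p below 0.05 (20.8% of all genes). The extreme value belonged to Rbm47, at 1.16, 0.772 and 0.880 CPM in PBS-control and 0.323, 0.516 and 0.511 CPM in PBS-acetate mice, which had too few counts for a precise estimate (log2 fold change -1.05, SE 0.48, adjusted p = 0.216 by edgeR). Among the Sf3a and Sf3b genes the differences were small. None of the 9 was called, the smallest p belonged to Sf3b1, the branch point binding subunit (log2 fold change 0.09, SE 0.05, adjusted p = 0.295 by edgeR), and all 9 had 95% intervals within a 1.25-fold change either way. Of the 19 Snrp and Snrnp genes, Snrnp70, the U1 protein that bridges to SR proteins, had the smallest p (log2 fold change 0.22, SE 0.08, adjusted p = 0.131).

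In tau-injected mice the diet called 0 of the 98 genes by edgeR and 0 by DESeq2. The background was 0.0407% of genes higher and 0.0204% lower. An unadjusted p below 0.05 was reached by 6 members (10.9% of all genes), of which 5 were lower on the acetate diet. Among all 14742 tested genes 1603 reached it, and 797 of these were lower. Rbm41, a protein of the minor spliceosome, had the smallest p, at 16.3, 12.3 and 17.1 CPM in Tau-control mice and 11.7, 12.6 and 11.1 CPM in Tau-acetate mice. Its groups overlapped, because Tau-control mouse 2 was low (log2 fold change -0.36, SE 0.12, adjusted p = 0.276). The other families had as their leading genes Hnrnpll at -0.14 (adjusted p = 0.381), Srsf12 at -0.19 (adjusted p = 0.419), Snrpb2 at -0.16 (adjusted p = 0.537), Luc7l3 at -0.09 (adjusted p = 0.565) and Sf3b1 at -0.08 (adjusted p = 0.598) by edgeR. For 76 of the 98 genes (77.6%) the 95% interval lay within a 1.25-fold change either way, against 51.7% of all tested genes. Of the 98, 57 had a log2 fold change below 0 (58.2%, against 49.7% of all tested genes). In the same comparison all 14 myelin markers had a log2 fold change above 0, with sums of 5287 to 6426 CPM in Tau-control and 6027 to 9729 CPM in Tau-acetate mice, and dentate granule markers, 6 of 8 above 0, summed to 797 to 879 and 884 to 973 CPM. Their part in the levels of the splicing genes was not tested.

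Tau against PBS on the control diet likewise called 0 members with either tool (0% of genes higher and 0.0136% lower by edgeR), and 3 members had an unadjusted p below 0.05 (9.65% of all genes). Snrnp200, the helicase that unwinds the U4 and U6 snRNAs, had the smallest p. It was at 177, 173 and 182 CPM in PBS-control and at 197, 199 and 190.1 CPM in Tau-control mice, so that the groups did not overlap, but the difference of 0.14 (SE 0.05) was far from the threshold (adjusted p = 0.382). Sf3b3, a scaffold subunit of the U2 snRNP, was at 108, 106 and 115 CPM in PBS-control and at 122, 118 and 120.2 CPM in Tau-control mice (log2 fold change 0.13, SE 0.05, adjusted p = 0.421). Rbm4b, a regulator of alternative splicing, differed by -0.27 (SE 0.12, adjusted p = 0.506). For Srsf3, Hnrnpll and Luc7l2 the differences were -0.10, 0.09 and -0.15, with adjusted p = 0.687, 0.700 and 0.747. Single mice moved these values, to -0.03 for Srsf3 without Tau-control mouse 2, and to 0.06 for Hnrnpll and -0.07 for Luc7l2 without PBS-control mouse 2. Without Tau-control mouse 2 or 3 the value of Luc7l2 was -0.08 or -0.27, and without Tau-control mouse 1 it was -0.10. The 95% interval lay within a 1.25-fold change for 75 of the 98 genes, and 66 of them had a log2 fold change below 0 (67.3%, against 50.3% of all tested genes). That count rested on Tau-control mouse 2, which had the lowest sum of the 98 genes in its group, and was 48 of 98 without it. Marker lists differed here as well. All 14 myelin markers were below 0, with sums of 5287 to 6426 CPM in Tau-control and 7945 to 10280 CPM in PBS-control mice. CA1 markers, 6 of 6 above 0, summed to 685 to 842 against 499 to 652 CPM, and CA3 markers, 6 of 8 below 0, to 352 to 443 against 457 to 551 CPM. Inhibitory neuron markers, 8 of 10 above 0, summed to 836 to 867 against 736 to 792 CPM, and meningeal markers, 7 of 7 above 0, to 61.7 to 73.1 against 46.4 to 59.2 CPM. The part of these lists in the lean of the splicing genes was not tested.

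The last pairwise comparison set tau against PBS on the acetate diet. A log2 fold change below 0 was found in 69 of the 98 (70.4%), against 51.2% of all tested genes, with medians of -0.07 and -0.00. By edgeR 1 member, Rbm25, was called lower and 0 were called higher (0.0475% and 0.0882% of all genes). An unadjusted p below 0.05 was reached by 22 members (10.3% of all genes in either direction), all of them lower (4.83% of all genes). In 24 members every Tau-acetate mouse lay below every PBS-acetate mouse (8.71% of all genes), and in 1 member, Rbm27, every Tau-acetate mouse lay above (7.51%). These counts and the diet comparison in PBS-injected mice share the 3 PBS-acetate mice, so a high value in those mice enters both.

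Rbm25 encodes a splicing regulator with an arginine-glutamate-rich region, part of which is printed above, that works with U1 and its Luc7l3 partner (chr12:83631236-83683123). It was at 188, 182 and 184 CPM in PBS-acetate mice, at 172, 175 and 175 CPM in PBS-control, at 162, 166 and 164 CPM in Tau-control and at 160.3, 151 and 152 CPM in Tau-acetate mice. None of the 4 groups overlapped another, and the group means fell from 185 ± 2.89 through 174 ± 1.55 and 164 ± 2.09 to 154 ± 5.15 CPM (SD, n = 3 each). Tau against PBS on the acetate diet gave a log2 fold change of -0.26 (SE 0.05, 95% interval -0.35 to -0.16, adjusted p = 0.0593), with the tau-injected mice lower in 3 of 3 samples. The same contrast on the control diet was -0.09 (SE 0.05, adjusted p = 0.580). Acetate against control diet was 0.08 in PBS-injected mice (SE 0.05, adjusted p = 0.306) and -0.09 in tau-injected mice (SE 0.05, adjusted p = 0.523). The call was lost without any of the 3 PBS-acetate mice, with adjusted p up to 0.352, while the log2 fold change stayed within -0.28 and -0.24 whichever mouse was left out.

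DESeq2 called 7 members lower in this comparison (0.299% of all genes), namely Rbm25, Hnrnpu, Luc7l2, Hnrnpdl, Luc7l3, Srsf5 and Srsf1. By edgeR the 6 other than Rbm25 missed the threshold. Luc7l2 was at 48.9, 54.9 and 53.0 CPM in PBS-acetate and at 43.3, 32.5 and 36.7 CPM in Tau-acetate mice, a log2 fold change of -0.48 (SE 0.11, adjusted p = 0.165 by edgeR and 0.0204 by DESeq2). This was the largest difference of the 7, and the groups did not overlap. Hnrnpdl, at 199, 189.7 and 211 CPM in Tau-acetate mice, differed by -0.27 (SE 0.06, adjusted p = 0.120 by edgeR).

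Luc7l3 lay at 194.3, 181 and 193 CPM in Tau-acetate mice (log2 fold change against PBS-acetate -0.22, SE 0.05, adjusted p = 0.151). These values were below all 9 other mice, but barely, since PBS-control mouse 1 was at 194.5 CPM. Hnrnpu, an abundant nuclear scaffold protein that binds chromatin and RNA, was at 598, 609 and 597 CPM in PBS-acetate and at 534, 522 and 546 CPM in Tau-acetate mice. With 561, 566 and 562 CPM in PBS-control and 555, 547 and 575 CPM in Tau-control mice it had the same 2 extreme groups as Rbm25 and Luc7l3, and its difference was -0.17 (SE 0.04, adjusted p = 0.170). For Hnrnpu, Tau-acetate mouse 3, at 546.3 CPM, was barely below Tau-control mouse 2, at 547.2 CPM. Srsf5, at 169, 149 and 163 CPM in Tau-acetate mice, differed by -0.26 (SE 0.07, adjusted p = 0.168 by edgeR). The leading genes of the other families were Sf3b1 at -0.15 (SE 0.05, adjusted p = 0.260) and Snrnp70 at -0.20 (SE 0.08, adjusted p = 0.427).

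**Figure D4:**
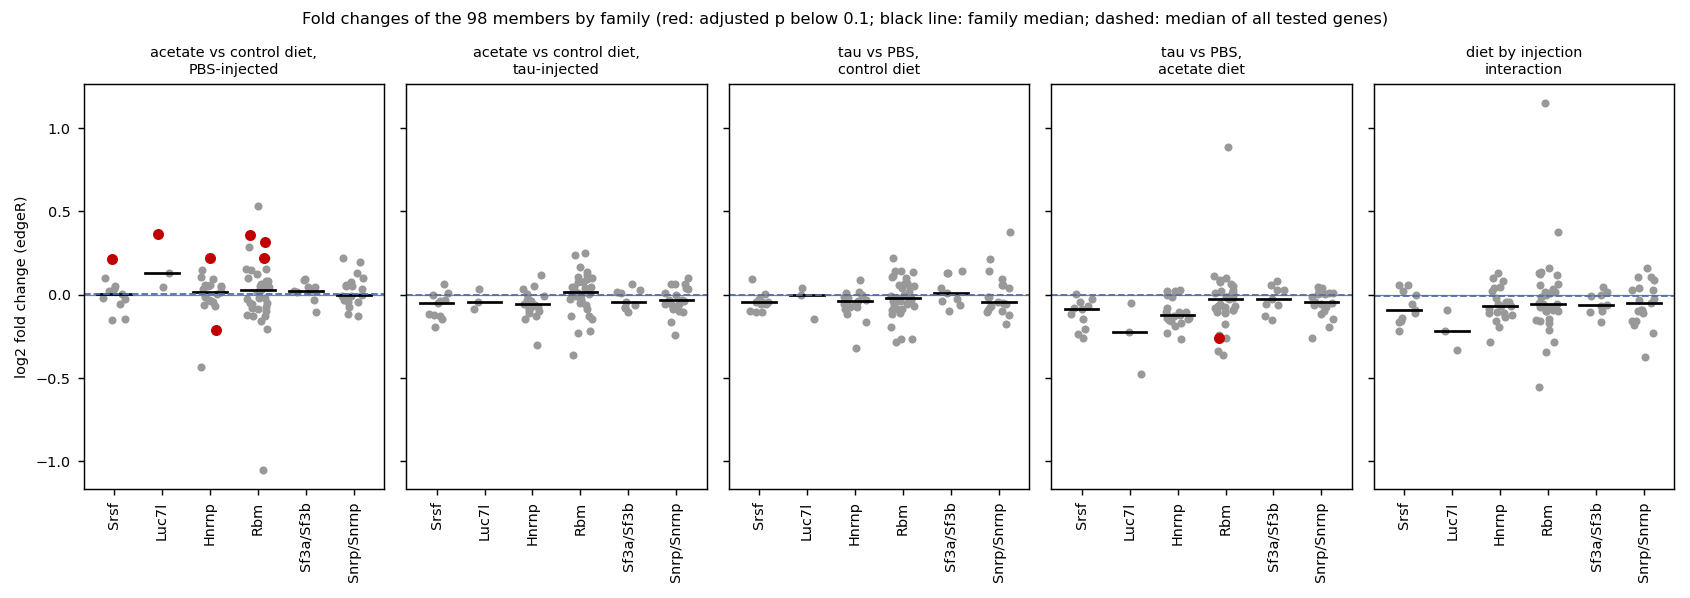
Log2 fold change of each of the 98 genes (points) by family in the 5 comparisons, with family medians (black lines), the median of all tested genes (dashed) and genes past an adjusted p of 0.1 in red. In tau against PBS on the acetate diet the Srsf, Luc7l and Hnrnp medians lie at -0.09, -0.22 and -0.12, and the others nearer 0.

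The families contributed unequally to these counts. Of 11 Srsf genes, 10 had a log2 fold change below 0 (median -0.09), of 21 Hnrnp genes 18 (median -0.12) and of 3 Luc7l genes 3 (median -0.22). The counts were 22 of 35 for Rbm (median -0.03), 5 of 9 for Sf3a and Sf3b (median -0.02) and 11 of 19 for Snrp and Snrnp (median -0.04). Srsf genes supplied 5 of the 22 members at an unadjusted p below 0.05 and Hnrnp genes 8. Differences between families were not tested.

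Read by sequence, of the 27 members rich in arginine-serine or arginine-acid codon pairs 24 had a log2 fold change below 0 (median -0.09), and of the other 70 protein-coding members 44 (median -0.05). Outside the families the count was 185 of 332 genes with as many such pairs (55.7%, median -0.02) and 6760 of 13498 genes with fewer (50.1%). In the diet comparison of PBS-injected mice 19 of the 27 lay above 0 (median 0.05), against 37 of the 70 (median 0.02). Of the 27 genes, 14 belong to the Srsf and Luc7l families, so this grouping is not independent of the one by family.

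**Figure D5:**
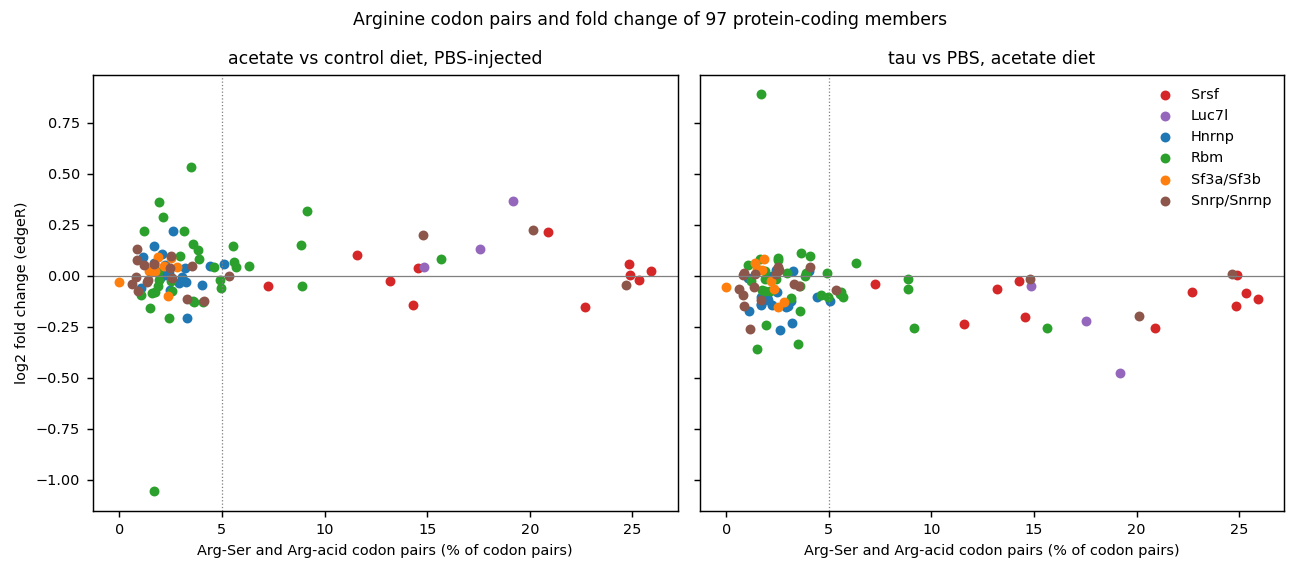
Log2 fold change of the 97 protein-coding members against their share of arginine-serine and arginine-acid codon pairs, for the acetate diet in PBS-injected mice (left) and for tau against PBS on the acetate diet (right), coloured by family. To the right of the dotted line at 5%, 19 of 27 points lie above 0 in the left panel and 24 of 27 below 0 in the right panel.

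Other lists differed too in this comparison, some of them opposite to the genes. The nuclear-retained RNAs summed to 4660 to 5951 CPM in Tau-acetate mice, below the 6793 to 7500.1 CPM of PBS-acetate mice, and Ftx, a long RNA of the X inactivation centre, was lower (log2 fold change -0.44, SE 0.07, adjusted p = 0.0593). The call of Ftx, like that of Rbm25, was lost without any 1 of the 3 PBS-acetate mice, with adjusted p up to 0.352. Choroid plexus markers were at 487 CPM in Tau-acetate mouse 3 and at 67.4 to 204 CPM in the 11 other mice. Without that mouse, 2 members were called lower, Rbm25 and Hnrnpdl, and 73 of the 98 log2 fold changes were below 0. CA1 markers summed to 723 to 1046 CPM in Tau-acetate mice, within which the PBS-acetate range of 788 to 1039 CPM fell, and the sums of the myelin markers overlapped although all 14 had a log2 fold change above 0. Microglial markers, 8 of 10 above 0, summed to 499 to 584 CPM in Tau-acetate and 462 to 486 CPM in PBS-acetate mice. The part of these lists in the levels of the splicing genes was not tested.

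The interaction asked whether the diet acted differently after tau and after PBS injection. It called 0 members by edgeR (1.11% of genes positive and 0.448% negative), and 10 had an unadjusted p below 0.05 (13% of all genes). Of these 10, 9 were negative, which means a lower diet effect in tau-injected mice. Among all tested genes 1916 reached that p, and 919 of them were negative. DESeq2 called 1, Hnrnpdl (0.841% of genes negative). For Hnrnpdl, which was higher on acetate in PBS-injected mice, the interaction was -0.28 (SE 0.08, adjusted p = 0.133 by edgeR and 0.0843 by DESeq2). It was -0.34 for Rbm33 (SE 0.11, adjusted p = 0.159), -0.22 for Luc7l3 (SE 0.07, adjusted p = 0.183) and -0.17 for Rbm25 (SE 0.06, adjusted p = 0.259). Sf3b1 had -0.16 (adjusted p = 0.302), Srsf5 -0.21 (adjusted p = 0.332) and Snrnp70 -0.18 (adjusted p = 0.553) by edgeR. The precision was lower here than in the pairwise comparisons, and the 95% interval lay within a 1.25-fold change for 50 of the 98 genes. The interaction was positive in 14 of 14 myelin (median 1.09) and 8 of 8 CA3 markers (median 0.47) and negative in 5 of 6 CA1 markers (median -0.56) and 11 of 12 nuclear-retained RNAs (median -0.25), and their part in the values of the splicing genes was not tested.

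Related genes outside the families were followed in 3 further lists, which were chosen with earlier results of these data known. Of 40 SR kinases and SR-related proteins, 5 were higher on acetate in PBS-injected mice and 0 lower, beside 3.99% and 4.85% of all genes. They were Arglu1, an arginine- and glutamate-rich coactivator, Pnn and Pnisr, nuclear speckle proteins, Rsrp1, a protein with an arginine-serine domain, and Clk4, a kinase of SR proteins. Arglu1 was at 89.3, 88.7 and 84.8 CPM in PBS-control and at 102, 107 and 107 CPM in PBS-acetate mice (log2 fold change 0.26, SE 0.06, adjusted p = 0.0251 by edgeR). Pnisr was at 236, 252 and 200.0 and at 276, 291 and 276 CPM (log2 fold change 0.30, SE 0.07, adjusted p = 0.0379). In 12 of the 40 the PBS-acetate mice were all higher and in 0 all lower (13.1% and 13.2% of all genes), and the list median was 0.05. In tau against PBS on the acetate diet 0 of the 40 passed by edgeR, 32 had a log2 fold change below 0 (median -0.09) and 11 had an unadjusted p below 0.05 (10.3% of all genes), led by Zranb2 at -0.20 (adjusted p = 0.168), Pnisr at -0.29 (adjusted p = 0.172) and Arglu1 at -0.22 (adjusted p = 0.177). Without PBS-acetate mouse 2 or PBS-control mouse 3 the adjusted p of all 5 in the diet comparison rose above 0.1. Pnn was also lost without PBS-acetate mouse 1, and Clk4 was lost without any of the 6 compared mice but PBS-control mouse 1 (adjusted p up to 0.256).

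Of 75 further spliceosome genes, 1 was higher on acetate in PBS-injected mice and 0 lower, against 3.99% and 4.85% of all genes. It was Fnbp4, which the list counts with the spliceosome (log2 fold change 0.26, SE 0.08, adjusted p = 0.0622). This call was lost without PBS-control mouse 3, PBS-acetate mouse 1 or PBS-acetate mouse 2. The median of the 75 was 0.03, and their sum lay at 4354 to 4424 CPM in PBS-control and 4499 to 4525 CPM in PBS-acetate mice. None of them was called by edgeR in the other 4 comparisons, in which 2, 2, 11 and 4 had an unadjusted p below 0.05 for the diet in tau-injected mice, tau on the control diet, tau on the acetate diet and the interaction. The shares of all genes in the same order were 10.9%, 9.65%, 10.3% and 13%.

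Among 48 tested neuronal and general splicing regulators, genes called higher on acetate after PBS injection included Celf5, Celf3 and Ewsr1. Those called lower were Celf4, Elavl2, Qk, Syncrip and Mbnl2. Of all genes, 3.99% were called higher and 4.85% lower. Without PBS-acetate mouse 2 the calls of all these named genes were lost. Without PBS-control mouse 3 all of them but Celf4 and Qk were lost. Celf3, Celf5, Ewsr1, Syncrip and Mbnl2 were also lost without other single mice. The median of this list was 0.01. The largest was that of Elavl2, a neuronal binder of AU-rich elements, at 116, 102 and 118 CPM in PBS-control and 65.3, 63.7 and 81.5 CPM in PBS-acetate mice (log2 fold change -0.68, SE 0.13, adjusted p = 0.0251 by edgeR). Qk, a glial regulator of myelin transcripts, fell by 0.30 on the log2 scale (SE 0.07, adjusted p = 0.0319), beside the lower myelin markers given above, and its part in them was not tested. Thus the broad list had calls in both directions, whereas the calls among SR-related genes were all upward. Because both lists were chosen with earlier results known, this contrast is a description and not independent support. In tau-injected mice, in tau on the control diet and in tau on the acetate diet 0 of the 48 passed by edgeR, with 7, 6 and 10 at an unadjusted p below 0.05 (10.9%, 9.65% and 10.3% of all genes). Of the 12 nuclear-retained RNAs, Ftx (0.32, adjusted p = 0.0278), Pantr1 (0.39, adjusted p = 0.0360) and Miat (0.62, adjusted p = 0.0458) were higher on acetate in PBS-injected mice, beside 3.99% of all genes. Each of these calls was lost without PBS-control mouse 3 or PBS-acetate mouse 2, and that of Miat also without PBS-acetate mouse 1.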

How the data were processed

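The authors prepared polyA libraries, aligned reads to GRCm38 with STAR 2.5.2a, counted them over genes with HTSeq 0.9.1 and deposited unnormalized counts of 24985 genes in 12 columns; 0 columns lacked a sample. The annotation release they counted on is not given in the sources used here. From these counts, genes were kept by filterByExpr (minimum count 10, minimum total 15) and fitted over 12 mice with edgeR 4.0.16 (R 4.3.3; TMM, factors 0.99 to 1.01; robust quasi-likelihood F test, 1 mean per group), with Benjamini-Hochberg adjustment over 14742 genes and calls at an adjusted p below 0.1. Standard errors came from the F statistic. DESeq2 1.42.0 (Wald test) was an alternative, and its missing adjusted p stayed missing. Levels are TMM-scaled CPM. The common biological coefficient of variation was 7.25%. Functions were tested on simulated data, with changes larger than those of the called members and a single spread for all genes. That test does not show how well changes as small as these are detected. Replicates are separate mice of 1 experiment, and those of a group differed by more than sampling noise (chi-square per degree of freedom 3.45 to 7.53).

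Members and gene lists were chosen with earlier results of these data known. Genes picked for naming were Rbm25, called members, the smallest p of each family, the 3 highest levels per kilobase, members next to the count limit and the 3 smallest p per list and comparison. Of this last group only some are named in the text, and others, such as Slu7, Prpf39 and Tardbp, are not described singly. Any other gene named, such as Hnrnpu, Srsf1 or further called genes of the lists, was chosen after its values were seen. Exons, coordinates and coding sequences are from GENCODE M21 on GRCm38. Lists of CA1, CA3, dentate granule, inhibitory neuron, myelin, astrocyte, microglia, endothelial, choroid plexus, meningeal and blood markers were summed per mouse; 13 mitochondrial mRNAs matched 0 rows. Over all 12 mice, dentate granule markers summed to 624 to 973 CPM, astrocyte to 4244 to 4737, endothelial to 179.6 to 222, meningeal to 46.4 to 82.9 and blood to 2.14 to 5.31 CPM, with 4 of 5 blood markers, all hemoglobin genes, at 0. The result of 1 gene of the lists is not reported here.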

Additional observations from a re-analysis of the deposited data

Results flagged for a closer look

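Of all tested genes, 164 had a positive and 66 a negative interaction called by edgeR (1.11% and 0.448%). In the splicing-related and nuclear-retained RNA lists outside the families, there were 3 genes for which the diet effect after tau injection differed from that after PBS injection. Ftx, a long RNA of the X inactivation centre, had an interaction of -0.53 (SE 0.10, adjusted p = 0.0435), with 45.1, 46.3 and 42.2 CPM in PBS-control, 56.7, 54.4 and 55.3 CPM in PBS-acetate, 47.6, 43.3 and 51.7 CPM in Tau-control and 42.2, 37.6 and 42.9 CPM in Tau-acetate mice. Fubp1, a single-stranded nucleic acid binder that takes part in splicing, had -0.32 (SE 0.08, adjusted p = 0.0874), with means of 107, 116, 112 and 96.5 CPM in the same order of groups. Qk had 0.37 (SE 0.10, adjusted p = 0.0973), with means of 411, 334, 345 and 363 CPM. Ftx lost its call without PBS-acetate mouse 2, at an adjusted p of 0.146. Fubp1 was called in 2 of the 12 fits that left out 1 mouse and Qk in 4. No group was large enough for a test of single outlying mice.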

How the results depend on the processing

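For the 5 counts of members called, DESeq2's size factors and a member limit of a mean count of 100 gave the same 7, 0, 0, 1 and 0 calls (acetate in PBS-injected mice, acetate in tau-injected mice, tau on the control diet, tau on the acetate diet, interaction). Tau on the acetate diet moved from 1 member to 2 without the filter on low counts, to 7 with DESeq2 on all 12 mice and to 0 at an adjusted p below 0.05. Acetate in PBS-injected mice moved from 7 to 3 at an adjusted p below 0.05, and the interaction from 0 to 1 with DESeq2. Leaving out 1 mouse at a time, the counts ranged from 0 to 11 for acetate in PBS-injected mice, from 0 to 2 for tau on the acetate diet and from 0 to 1 for the interaction. With a group reduced to 2 mice the fit assumed the spread of the other groups. With 3 mice per group an exact permutation test of 1 gene cannot give a p below 0.1, so the calls rest on the spread shared over genes and groups.

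Same-numbered mice did not deviate together (correlations of -0.09 to 0.14), so the replicate numbers were not taken to pair them. With a replicate block, 5, 0, 0, 1 and 0 members were called, and Luc7l2 and Rbm22 were the 2 lost.

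Among the log2 fold changes of the genes picked in each comparison, including list genes not described above, 0 reversed under any alternative. The threshold was lost by 107 values of called genes and passed by 46 values of other genes. The median shift of all tested genes under the other scaling was below 0.01 on the log2 scale, and 42 of 98 members lay below 0 in PBS-injected mice under both scalings.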
